A study of Mus musculus with 8 samples.

Results

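The 10 genes described here encode the Notch receptors of lymphocytes, the nuclear complex through which they act and the factors that end or restrain the signal. They were chosen by their roles in the pathway, with earlier results of these data known. Among them are the receptors Notch1 and Notch2, the DNA-binding partner Rbpj and the coactivators Maml1, Maml2 and Maml3. The others are the corepressor Spen and the turnover factors Fbxw7, Numb and Itch. On the array 9 of the 10, out of 18193 genes with a probe set of their own, had such a probe set. They had 20 of them, and Maml3 was not analysed here. After dim probe sets were dropped, 16 probe sets of 8 genes were tested, and Maml2 (signals of 6.00 to 32.7) was below the dim level of 42.9.

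B cells were purified from the spleens of C57BL/6 mice at 12 weeks of age, by magnetic removal of other cells. The mice were either irf4-/- (Irf4 null, n = 4 arrays) or irf4+/+ littermates (wild type, n = 4 arrays). Irf4 encodes a transcription factor of lymphocytes that binds DNA with Ets and AP-1 family partners. The comparison asks which members differ in RNA level between the genotypes. Whether the arrays stand for separate mice is not in the labels, and p-values here cover only the variation among these arrays, which may be partly technical.

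Notch receptors are cut when a ligand on a neighbouring cell binds them, and the freed intracellular part enters the nucleus. There it joins Rbpj and a Mastermind-like protein to switch on target genes, and in its absence Rbpj holds the same genes off with corepressors such as Spen. Fbxw7 marks the intracellular part for destruction, while Numb and the ubiquitin ligase Itch act on the receptor at the membrane and in endosomes. In the spleen, Notch2 is the receptor that B cells need to become marginal zone B cells, and Spen restrains that step.

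Fbxw7 was the member whose RNA difference between the genotypes passed the test, and its gene has 3 start sites in the RefSeq promoter table (GRCm38.p6). The 250 bases before each are shown for the letters that Irf4 is known to bind with Ets partners. Capitals mark the letters of a composite Ets-IRF element, GGAA and GAAA with any 2 bases between them, or the reverse complement. The windows lie on the plus strand at chr3:84815327-84815576, chr3:84863895-84864144 and chr3:84951961-84952210, and each is printed 5′ to 3′.
Fbxw7 start 1: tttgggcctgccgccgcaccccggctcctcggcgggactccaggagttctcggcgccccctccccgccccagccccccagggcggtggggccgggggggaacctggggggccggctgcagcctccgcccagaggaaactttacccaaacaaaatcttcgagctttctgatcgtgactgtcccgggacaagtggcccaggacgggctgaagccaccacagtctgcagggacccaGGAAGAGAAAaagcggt
Fbxw7 start 2: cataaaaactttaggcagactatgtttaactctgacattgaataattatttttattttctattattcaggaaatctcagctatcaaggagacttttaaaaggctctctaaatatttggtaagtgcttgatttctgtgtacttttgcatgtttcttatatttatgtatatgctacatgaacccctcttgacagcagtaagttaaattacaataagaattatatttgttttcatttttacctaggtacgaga
Fbxw7 start 3: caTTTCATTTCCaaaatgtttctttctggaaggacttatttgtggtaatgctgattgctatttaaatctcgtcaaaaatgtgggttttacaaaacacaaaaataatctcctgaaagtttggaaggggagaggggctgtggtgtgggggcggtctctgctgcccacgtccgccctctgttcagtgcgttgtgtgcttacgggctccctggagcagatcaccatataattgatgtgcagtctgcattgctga
The letters stand at positions -17 to -8 of the window at start 1 and at positions -248 to -239 of that at start 3, with -1 the last base before the start. They were absent from the window at start 2. Of 32851 such windows over all genes, 2.3% hold these letters on either strand. Of the 15 windows found for 9 of the members 3 do, the remaining one before a start of Numb; Itch was not among them. Letters of an IRF repeat, GAAA and GAAA with any 2 bases between, stand in 1 of the 15, before the same start of Numb, and in 2.98% of all windows. A match describes letters and not binding, and which start the B cells used is not known from these arrays.

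The core letters bound by Rbpj, TGGGAA on either strand, stand in 5 of the 15 member windows and in 21.6% of all windows. The promoter of Rbpj itself is shown since it holds these letters on both strands. The window lies on the plus strand at chr5:53590096-53590345, with the letters in capitals.
Rbpj start 1: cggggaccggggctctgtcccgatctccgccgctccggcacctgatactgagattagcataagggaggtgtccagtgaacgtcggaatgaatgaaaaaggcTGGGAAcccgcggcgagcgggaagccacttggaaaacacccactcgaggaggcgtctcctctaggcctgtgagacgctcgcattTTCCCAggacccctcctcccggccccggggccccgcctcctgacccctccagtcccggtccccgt
The matches stand at positions -149 to -144 and -65 to -60, and a second Rbpj window overlaps this one and shares a match. The windows of Notch1, Notch2 and Maml1 held none of the 3 motifs.

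Signals are MAS5 intensities scaled to the same trimmed mean, 500.003, on every array, and array medians lay between 76.9 and 92.2. Irf4 was lower on all null arrays (244 to 315) than on all wild-type arrays (1719.9 to 2341), and its log2 fold change was -2.76 ± 0.12 (SE, by limma with an adjusted p of 4.6e-06). Summed over 9 of 10 B cell markers, signals were 84857 to 103497 in wild type and 87721 to 96623 in Irf4 null. The arrays also divide by Xist, the RNA of the inactive X chromosome, which read 17119 to 19652 on wild-type arrays 1, 3 and 4 and null array 1 and 49.2 to 94.8 on the others. Some lists of markers of other cells followed the same division. Summed neutrophil markers (11 of 12 tested) were 5977 to 11303 on Xist-high and 21468 to 77738 on Xist-low arrays. Summed T cell markers (10 of 12) were 1056 to 2038 and 2156 to 9730. Within the genotypes the neutrophil sum was 5977 to 55768 in wild type and 11303 to 77738 in Irf4 null, and the T cell sum 1056 to 2156 and 1316 to 9730. Natural killer cell sums (7 of 8) were 2252 to 3976 on Xist-high and 7367 to 12829 on Xist-low arrays, and monocyte and macrophage sums (11 of 11) 11253 to 15832 and 29453 to 38208. Dendritic cell sums (6 of 7) were 763 to 961 and 1185 to 1880. The classes overlapped for erythroid cells and platelets (9 of 12; 3490 to 6739.6 on Xist-high and 4423 to 15201 on Xist-low arrays), stroma and endothelium (2 of 7; 557 to 785 and 492.5 to 683) and plasma cells (5 of 6; 8898 to 16633 and 8451 to 38930). No marker on these lists was at 0. Each member is therefore also given with an Xist-high term. In RNA of whole preparations, fewer cells of a type and less RNA per cell cannot be told apart.

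Of the 16 probe sets, 2 passed at an adjusted p below 0.05 (limma, adjusted over all 27022 probe sets), both of Fbxw7 and both lower in Irf4 null. Over all probe sets 3.52% passed, 1.51% as lower and 2.01% as higher. The 4 null arrays all lay below the 4 wild-type arrays for 4 of the 16, the brightest probe sets of Maml1 and Itch beside those of Fbxw7, against 5.33% of all probe sets. None of the 16 had all null arrays above, where 5.48% of all probe sets did. Log2 fold changes were above 0 for 7 and below 0 for 9, from -0.50 to 0.28, with a median of -0.16 beside 0.0030 over all probe sets. At an unadjusted p below 0.05 stood 5 of the 16, beside 17.1% of all probe sets.

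**Figure D1:**
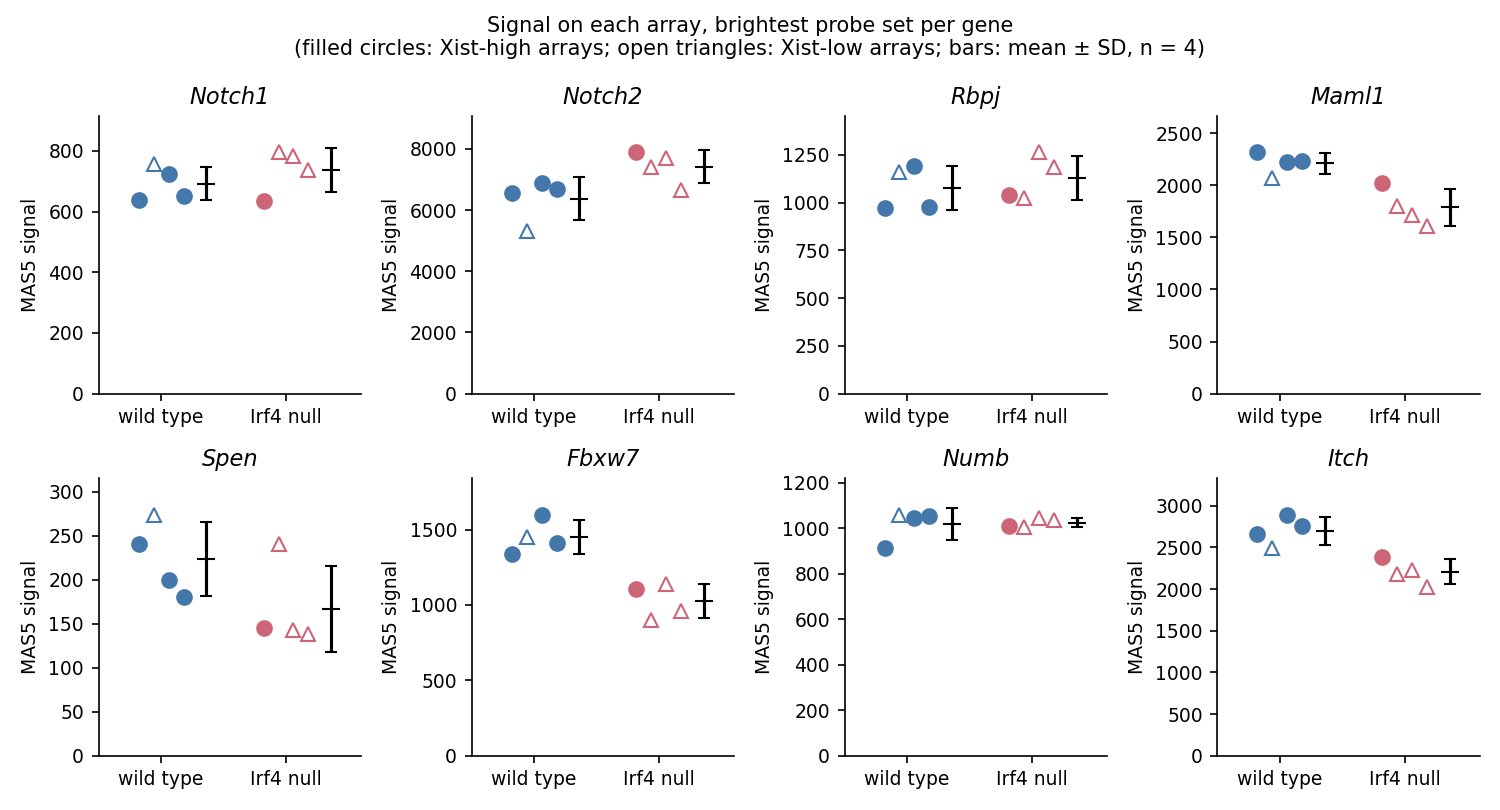
MAS5 signal (linear scale from 0) of the brightest probe set of each of 8 members on each array, wild type on the left and Irf4 null on the right of each panel, with the mean and SD of 4 arrays beside the points. The 4 null arrays lie below the 4 wild-type arrays for Maml1, Fbxw7 and Itch, and the groups overlap for Notch1, Notch2, Rbpj, Spen and Numb.

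Notch2, the receptor for marginal zone development, had a higher mean in Irf4 null, and the difference did not pass the test. Its brightest probe set read 6555, 5327, 6900 and 6698 on wild-type arrays 1 to 4 and 7882, 7400.1, 7707.5 and 6665 on null arrays 1 to 4. Null arrays 1 to 3 were above every wild-type array, while null array 4 fell within the wild-type range, and wild-type array 2 was the lowest of the 8. The means were 6370.0 ± 709.8 (SD, n = 4) and 7414 ± 537 (SD, n = 4), a log2 fold change of 0.22 ± 0.09 (SE), with a 95% interval from 0.019 to 0.43 (limma, adjusted p = 0.244). That interval runs from a 1.01-fold to a 1.34-fold higher level. With the Xist-high term the log2 fold change was 0.34 ± 0.08 (adjusted p = 0.0708), and with the mean of 56 markers of other cells as a covariate 0.33 (adjusted p = 0.14). That mean leaves out B cell and plasma cell markers. On the log2 scale it was 7.85 to 8.20 on Xist-high and 8.86 to 9.56 on Xist-low arrays, so it divided the arrays as Xist did. Wild-type array 2 alone moved it by over 1.5 times: without that array the log2 fold change was 0.14 (adjusted p = 0.329). The other Notch2 probe set read 7.25 to 23.5 on all arrays, below the dim level, and was not tested.

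Notch1, the receptor that guides T cell development and is induced in activated B cells, did not pass. The brightest probe set read 639, 755, 723 and 652 on the wild-type arrays, against 634, 795, 783 and 736 on the null arrays, so the groups overlapped. Its log2 fold change was 0.086 ± 0.10 (SE), with a 95% interval from -0.14 to 0.32 (limma, adjusted p = 0.738). At its dimmer probe set Notch1 read 196, 227, 155 and 126 on the wild-type arrays, against 177, 228, 220.5 and 227 on the null arrays (log2 fold change 0.28 ± 0.18, adjusted p = 0.496). Both Notch1 probe sets divided the arrays by Xist rather than by genotype. The brighter one read 634 to 723 on Xist-high and 736 to 795 on Xist-low arrays, and the dimmer one 126 to 196 and 220.5 to 228. The Xist-high term itself did not pass for either (limma, adjusted p = 0.403 and 0.365). These 2 were the members with no overlap between the Xist classes, 2 of 16, and 9.34% of all probe sets had none. With the Xist-high term the genotype difference of the brighter Notch1 probe set changed sign, to -0.025 (adjusted p = 0.951), and with the marker covariate it was -0.049. That of the dimmer one stayed above 0, at 0.075 with the term and 0.058 with the covariate. Summed T cell markers were higher on the same arrays, as were those of neutrophils, natural killer cells, monocytes and macrophages, and dendritic cells. Single T cell markers did not all follow: Cd3d read 259 on wild-type array 2 (Xist-low) and 332 on wild-type array 3 (Xist-high). The part of these cells in the Notch1 level was not tested beyond the marker covariate.

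The nuclear complex held no member that passed. Rbpj, which binds the DNA of Notch targets with or without Notch, read 974, 1158, 1192 and 978 on the wild-type arrays, against 1039.6, 1025, 1262 and 1187 on the null arrays at its brightest probe set. The groups overlapped almost fully, with a log2 fold change of 0.069 ± 0.11 (SE) and a 95% interval from -0.16 to 0.30 (limma, adjusted p = 0.8). The 2 other Rbpj probe sets lay on either side of that value. One read 387 to 410.5 in wild type and 409 to 493 in Irf4 null (log2 fold change 0.17 ± 0.10, adjusted p = 0.435), and its groups overlapped through a single null array. The other read 195 to 264 in wild type and 169.6 to 262 in Irf4 null (-0.17 ± 0.17, adjusted p = 0.681). With the Xist-high term the brightest one stood at -0.0051.

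Maml1, the coactivator that bridges Notch, Rbpj and histone acetyltransferases, was lower on every null array at its brightest probe set and narrowly missed the threshold. It read 2317, 2075, 2229 and 2230.4 on the wild-type arrays, against 2026, 1804, 1713 and 1614 on the null arrays. The highest null array lay 48.5 signal units below the lowest wild-type array, and these were null array 1 and wild-type array 2. The means were 2213 ± 101 and 1789.6 ± 175.7 (SD, n = 4 each), and the log2 fold change was -0.31 ± 0.09 (SE), with an adjusted p of 0.0811 by limma. Leaving out wild-type array 2 (adjusted p = 0.0443) or null array 1 (adjusted p = 0.0472) brought it past the threshold. These were 2 of 8 fits with 1 array left out, and the highest adjusted p among the 8 was 0.21 (limma). Wild-type array 2 is the only Xist-low wild-type array, and without it 8.04% of all probe sets passed. Dropping null array 1, the only Xist-high null array, left 439 probe sets called as higher and 330 as lower. With the Xist-high term it was -0.22 ± 0.08 (adjusted p = 0.267), and within the Xist-high arrays, where null array 1 is the only null array, -0.16. The dimmer Maml1 probe set overlapped, with 280 to 405 in wild type and 224 to 351 in Irf4 null (-0.16 ± 0.17, adjusted p = 0.691). Its remaining probe set was dim, at 6.21 to 54.7. Averaged over both tested probe sets, Maml1 stood at -0.23 (adjusted p = 0.241).

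Spen, the corepressor that Rbpj recruits in the absence of Notch, had the largest SE of the 16 fitted differences. Its probe set read 241, 274, 199.8 and 180.2 on the wild-type arrays, against 145, 240.3, 142 and 139 on the null arrays. On 3 of the 4 null arrays it was below every wild-type array, and null array 2 stood at the level of wild-type array 1. The log2 fold change was -0.41 ± 0.20 (SE), with a 95% interval from -0.85 to 0.027 (limma, adjusted p = 0.328). Adding the Xist-high term gave -0.56 ± 0.22 (adjusted p = 0.265). The spread leaves room for a level between 0.556-fold and 1.02-fold of wild type.

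**Figure D2:**
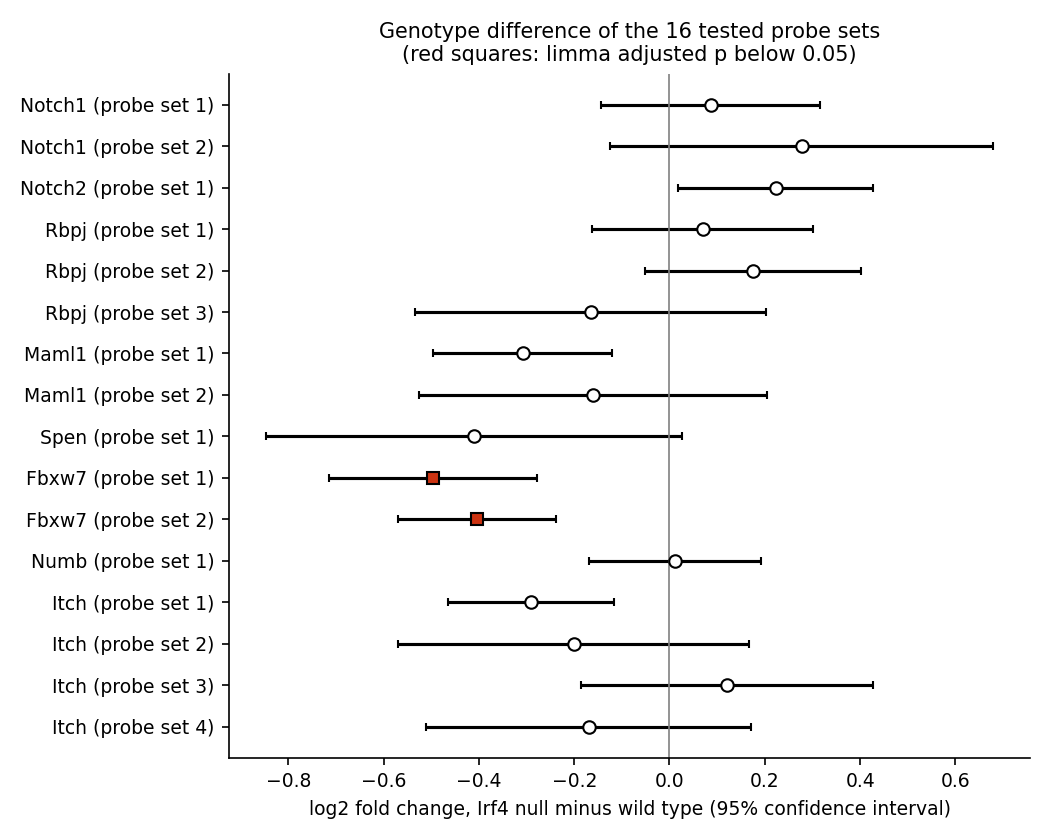
Log2 fold change (Irf4 null minus wild type) of the 16 tested probe sets with 95% confidence intervals from limma, numbered from the brightest within each gene. The 2 Fbxw7 probe sets, at -0.50 and -0.40, are the ones that passed, and the intervals of Notch2 and of the brightest probe sets of Maml1 and Itch also lie to 1 side of 0.

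Fbxw7, the substrate-binding subunit of the ubiquitin ligase that ends the nuclear Notch signal, fell in Irf4 null at both of its probe sets. The brighter one read 1338, 1453, 1600.2 and 1409.6 on the wild-type arrays, against 1103, 904, 1138 and 958 on the null arrays. The dimmer one read 1243, 1237, 1359 and 1244 on the wild-type arrays, against 958, 927, 974 and 963 on the null arrays. Neither showed any overlap, and the nearest arrays of the genotypes were 199.7 and 262 signal units apart. Means fell from 1450.2 ± 110.8 to 1025.5 ± 112.7 (SD, n = 4) for the brighter one and from 1270.6 ± 59.1 to 956 ± 20.1 for the dimmer one. The log2 fold changes were -0.50 ± 0.10 (SE; limma, adjusted p = 0.0206) and -0.40 ± 0.08 (adjusted p = 0.0153), levels of 0.709-fold and 0.756-fold of wild type. The mean of both gave -0.45 ± 0.07 (limma over genes, adjusted p = 0.0078). The name of the brighter Fbxw7 probe set ends in _s_at, as does that of the brightest Maml1 probe set, and that of the dimmer one does not. By the array maker's naming, this ending marks probes that match more than 1 transcript.

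The summed markers of plasma cells, a cell type that needs Irf4, also divided the arrays by genotype. Over 5 of 6 markers, none at 0, the sum was 14912 to 38930 in wild type and 8451 to 9894 in Irf4 null. Within wild type the sum was 38930 on array 2 and 14912 to 16633 on the others. On wild-type array 2 the brighter Fbxw7 probe set read 1453, inside the wild-type range, and the dimmer one 1237, the lowest of wild type. Of the 5 plasma cell markers, 3 passed as lower. Xbp1 (7600 to 11043 in wild type and 8084 to 9564 in Irf4 null) and Prdm1 (168 to 878 and 140 to 242) overlapped between the genotypes. The part of plasma cells in the Fbxw7 difference was not tested. The size of the Fbxw7 difference varied less than its call. With the Xist-high term the log2 fold changes were -0.46 (adjusted p = 0.0662) and -0.39 (adjusted p = 0.0496), so the brighter probe set no longer passed. In that fit 2.36% of all probe sets passed, 0.947% as lower. With the marker covariate, which holds no plasma cell markers, they were -0.49 (adjusted p = 0.0704) and -0.39 (adjusted p = 0.0627). In that fit 2.17% of all probe sets passed, 0.892% as lower. Within the Xist-high arrays they were -0.39 and -0.41, and within the Xist-low arrays -0.54 and -0.37, none of which passed. Those fits called 0.944% (0.315% as lower) and 0.977% (0.403% as lower) of all probe sets. With robust variances both passed, as did 3.79% of all probe sets (1.66% as lower). The brighter one also lost its call without wild-type array 3 (adjusted p = 0.0638), wild-type array 4 (0.0604), null array 2 (0.0666) or null array 4 (0.0701), and the dimmer one without null array 2 (0.0552). Without null array 2, 1.87% of all probe sets passed, 0.688% as lower.

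Itch, a HECT-type ubiquitin ligase that acts on Notch and on other lymphocyte substrates, had 4 tested probe sets that disagreed. The brightest read 2658, 2494.5, 2894 and 2760.2 on the wild-type arrays, against 2389, 2181, 2231 and 2024 on the null arrays, with no overlap and a gap of 105 signal units. Its log2 fold change was -0.29 ± 0.08 (SE; limma, adjusted p = 0.0751), which did not pass. Without wild-type array 2, the only Xist-low wild-type array, it did pass (-0.33, adjusted p = 0.0328). That fit called 8.04% of all probe sets (3.24% as lower). It was the 1 of 8 fits with 1 array left out in which Itch passed, and the highest adjusted p was 0.194 (limma). With the Xist-high term the brightest Itch probe set was at -0.21 ± 0.08 (adjusted p = 0.254). With array weights, Itch and Maml1 passed beside Fbxw7, and 6.46% of all probe sets did (2.76% as lower). The other 3 overlapped, at -0.20, 0.12 and -0.17, and the mean of the 4 was -0.14 (adjusted p = 0.496). The brightest of these 3 spanned 657 to 1255 in wild type, a range that took in all null arrays (739.5 to 888).

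Numb, an adaptor that sorts Notch into endosomes and restrains it, was the member with the estimate nearest to 0. Its probe set read 915, 1061, 1046 and 1053 on the wild-type arrays, against 1012, 1007, 1045 and 1037 on the null arrays. Null arrays lay within the wild-type range, with a log2 fold change of 0.011 ± 0.08 (SE) and a 95% interval from -0.17 to 0.19 (limma, adjusted p = 0.965). A difference larger than a level of 0.89-fold or 1.14-fold lies outside that interval. The other Numb probe set was dim, at 6.89 to 43.3.

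**Figure D3:**
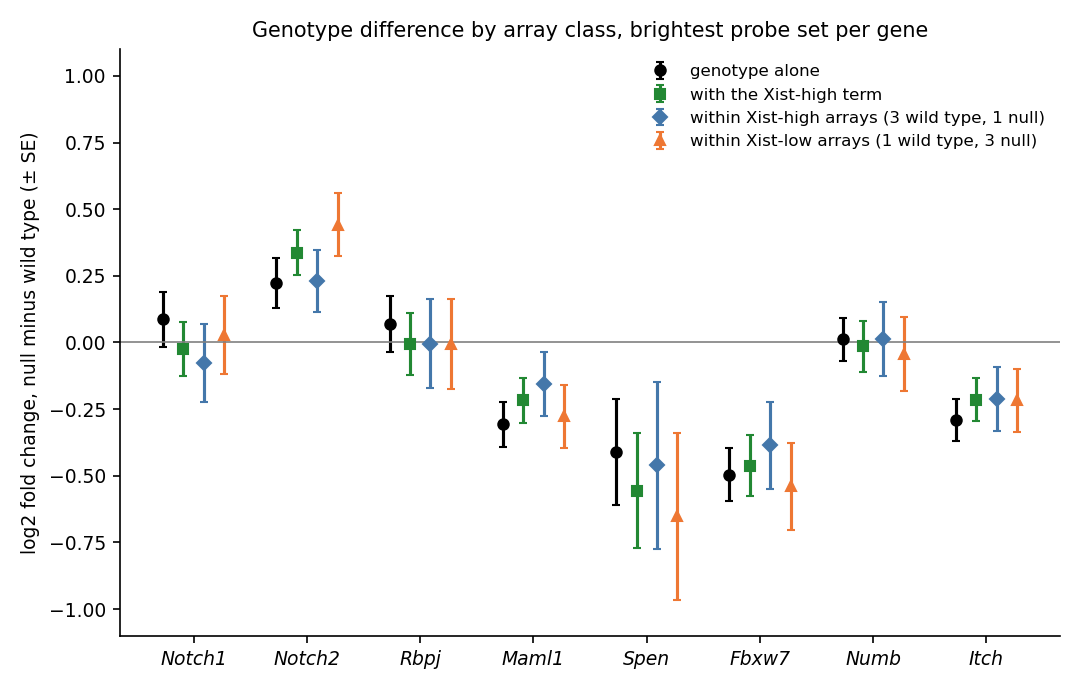
Log2 fold change with its SE (limma) of each member's brightest probe set for genotype alone, with the Xist-high term, and within each Xist class, where 1 class holds 1 null array and the other 1 wild-type array. Fbxw7, Maml1, Itch and Spen are below 0 and Notch2 above 0 in all 4 settings, while Notch1, Rbpj and Numb change sign.

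Whether the genotype difference itself differed between the Xist classes was tested as an interaction. None of the 16 passed (limma; 2 at an unadjusted p below 0.05, both dimmer Itch probe sets; smallest adjusted p = 0.551), and neither did any of the 27022 probe sets (0.0%), so the count reads nothing about the members. Notch2 stood at 0.23 among the Xist-high and at 0.44 among the Xist-low arrays, and the 95% interval of the Xist-high minus the Xist-low value ran from -0.58 to 0.16. In this fit a class with 1 array of a genotype is assumed to vary like the others.

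The rest of the Notch pathway was read from lists of 75 further genes, 67 of them tested at 1 probe set each. At the brightest probe set 4 of these rose and none fell, 5.97%, where 4.37% of 11802 genes passed, 2.67% as higher and 1.7% as lower. At an unadjusted p below 0.05 stood 17 of the 67, beside 20.3% of all genes. When each gene was instead averaged over its tested probe sets 7 passed, where 5.19% of all genes did (2.05% as lower): Klf5 joined the 4 that rose (0.73, adjusted p = 0.0362), and Tle1 (-0.69, adjusted p = 0.014) and Adam17, a protease that cleaves Notch at the cell surface (-0.31, adjusted p = 0.0239), fell. Adam17 is named because of that value. Among 8 tested targets 3 rose: Dtx1, a ubiquitin ligase gene switched on by Notch2 in marginal zone B cells, the repressor gene Hes5, and Asb2, a ubiquitin ligase subunit gene. Dtx1 went from 3423 ± 471 to 9237 ± 692 (SD, n = 4; log2 fold change 1.44 ± 0.10), Hes5 from 132 ± 54.8 to 538 ± 162 and Asb2 from 489 ± 292 to 1745 ± 291. The dimmer Dtx1 probe set went the other way without passing, from 157 to 117 (-0.40, adjusted p = 0.295), and the mean of both stood at 0.52 (adjusted p = 0.0142). At the brightest probe set groups did not overlap for any of the 3, and each passed with the Xist-high term (limma, adjusted p at most 0.0112). Within the Xist classes Dtx1 passed in both. Hes5 did not pass within Xist-high arrays (1.42, adjusted p = 0.102), nor Asb2 within Xist-low arrays (0.90, adjusted p = 0.163). The brightest Hes5 probe set ends in _x_at, which marks possible cross-hybridisation, and its other tested probe set also passed (0.99, adjusted p = 0.0297).

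Among 17 other endocytic and ubiquitin factors 1 rose. Nedd4, a HECT-type ligase of the family of Itch whose Drosophila relative opposes Notch, read 951, 1608, 1062 and 1520.2 on the wild-type arrays, against 2118, 2810.1, 2185 and 2932 on the null arrays. All null arrays were higher. Its log2 fold change was 0.98 ± 0.18 (SE; limma, adjusted p = 0.0127), and the remaining 2 Nedd4 probe sets rose as well, by 0.75 and 0.89. Nedd4 still passed with the Xist-high term (0.78, adjusted p = 0.035). Among other settings, it lost its call with the marker covariate (0.80, adjusted p = 0.0594) and without null array 4 (adjusted p = 0.0509). It did not pass within either Xist class, where 1 genotype is a single array, and stood at 0.87 within the Xist-high and at 0.70 within the Xist-low arrays.

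At the brightest probe set no other list held a call (limma). Among 12 other nuclear cofactors none passed (4 at an unadjusted p below 0.05). Tle1, a Groucho-type corepressor, was nearest, with 339.5 to 496 in wild type and 201 to 274 in Irf4 null (-0.59 ± 0.15, adjusted p = 0.0646). Its dimmer probe set did pass (-0.79, adjusted p = 0.0327); it is named here because of that value. Among 12 other proteins that the Fbxw7 ligase degrades, none of the genes passed (5 at an unadjusted p below 0.05), with Klf5 nearest, at 46.3 to 91.5 in wild type and 103 to 157 in Irf4 null (0.88 ± 0.21, adjusted p = 0.0503). Klf5 did pass with a pseudocount of 64, quantile normalization, a common median, robust variances or array weights and without wild-type array 2 (adjusted p from 0.016 to 0.0499). None passed among 8 proteases (1 at an unadjusted p below 0.05; Ncstn, a subunit of the protease complex gamma-secretase, at -0.30, adjusted p = 0.288), where Adam17 stood at -0.17 (adjusted p = 0.398) before its probe sets were averaged. None passed among 5 fringe and O-glycosylation enzymes (0 at an unadjusted p below 0.05; Pofut1, which adds O-fucose to Notch, at 0.086), 4 ligands (0; Jag1 at 0.39) or the 2 receptors Notch3 and Notch4 (0; Notch4 at 0.42). Notch4 and Jag1 averaged 48.9 and 58.9 in wild type, near the dim level.

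**Figure D4:**
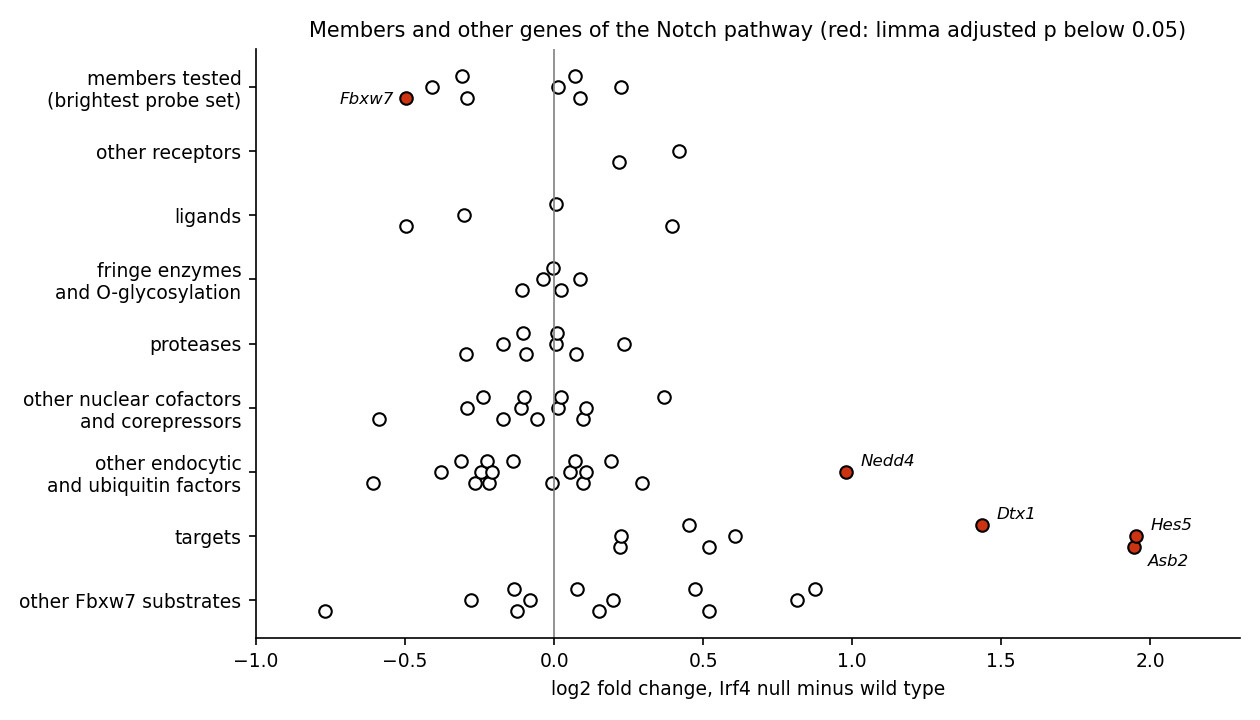
Log2 fold change (Irf4 null minus wild type) of the 8 tested members and of 67 other genes of the Notch pathway, 1 point per gene at its brightest probe set, with Myc drawn in both lists that hold it. At that probe set the genes past the threshold are Fbxw7, at -0.50, and Nedd4, Dtx1, Asb2 and Hes5, at 0.98 to 1.95.

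The genes whose log2 signal followed Notch2 most closely over the 8 arrays, out of 11802, were Cypt3 (Pearson r = 0.989), the pseudouridine synthase gene Trub1 (0.974), the phosphatase gene Phlpp1 (0.960), the mitochondrial topoisomerase gene Top1mt (0.958) and the calmodulin-binding protein gene Nrgn (0.951). Cypt3 read only 30.9 to 72.7, near the dim level. Like Notch2, Phlpp1 was lowest on wild-type array 2 (660.5) and highest on null array 1 (1216). Closest to Fbxw7 were the endolysosomal channel gene Mcoln2 (0.989), the Golgi mannosidase gene Man1a (0.988), the ubiquitin ligase gene Rnf13 (0.983), the Krebs cycle enzyme gene Ogdh (0.978) and Fcer2a (0.977), which encodes the IgE receptor CD23. Mcoln2 read 714 to 915 in wild type and 233 to 404 in Irf4 null, and Fcer2a 6431 to 7880 and 2486 to 4402. All 5 were lower on every null array than on every wild-type array, which is largely set by choosing them for their likeness to Fbxw7. These values describe 8 arrays that share 2 genotypes and the Xist division, and they are the highest of 11802.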

How the data were processed

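RNA of splenic B cells from 4 Irf4 null and 4 wild-type samples (6 µg of total RNA each, per the labels) was hybridised to 1 Affymetrix mouse array per sample. The deposited values are intensities on a linear scale, which the authors computed with MAS5, as the submitters' processing notes state; the sources used here do not give its version, scaling target or genome build. Every array has a 2% trimmed mean of 500.003, and no further normalization was applied. There are no detection calls, the number of arrays limits the precision, and no array columns held identical values.

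The platform annotation pairs 34958 of 45101 probe sets with 1 gene symbol, 932 with several and 9211 with none. Symbols were updated by gene identifier to RefSeq (GRCm38.p6), which matched 34754. Members are the probe sets with 1 member symbol.

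Control probe sets (64) and the 40% with the lowest mean log2 value were dropped, leaving 27022. Values were taken as log2(signal + 16), so fold changes of dim probe sets are understated. The genotype difference was tested in limma 3.58.1 under R 4.3.3 (lmFit, eBayes with a variance trend, Benjamini-Hochberg over all 27022, threshold 0.05), after a check on simulated data. Arrays with an Xist signal over 1000 were called Xist-high. Genes with several probe sets are represented by the brightest, or as an alternative by their average. Named are all members, and from each further list up to 4 called genes, or the 1 nearest the threshold.

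The members, lists and Xist term were chosen with earlier results of these data known. Promoter letters come from RefSeq. Alternatives changed the pseudocount, filter, scaling, variance model, array weights, covariates, replicate block, threshold and arrays used. Figures were drawn with matplotlib 3.10.9.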

Additional observations from a re-analysis of the deposited data

Results flagged for a closer look

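In 52 groups of 4 arrays (16 member probe sets and 10 further genes, in each genotype), 1 array stood apart from the 3 others in 5; chance alone sets an array apart in about 1 of 20 such groups. For Spen null array 2 read 240.3 while the others read 139 to 145. For the dimmer Fbxw7 probe set wild-type array 3 read 1359 and the others 1237 to 1244, and that array lies on the side away from Irf4 null. For Numb wild-type array 1 read 915 and the others 1046 to 1061. For the dimmer Notch1 probe set null array 1, the Xist-high one, read 177 and the others 220.5 to 228. For Tle1 null array 4 read 201 and the others 262 to 274.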

How the results depend on the processing

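The count of member probe sets called, 2, was also 2 with a pseudocount of 1 or 64, either other filter, robust variances, quantile normalization, arrays centred on a common median and the replicate block, and the 2 were those of Fbxw7 each time. It was 1 without the variance trend, where 355 of all probe sets passed as higher and 200 as lower, beside 543 and 407 in the main fit. It was 1 with the Xist-high term, where 2.36% of all probe sets passed. It was 4 with array weights, which added the brightest probe sets of Maml1 and Itch, and 6.46% of all probe sets passed there. It was 0 with the marker covariate (limma; 6 at an unadjusted p below 0.05), 0 within the Xist-high and 0 within the Xist-low arrays (4 each) and 0 at a threshold of 0.01. Leaving out 1 array gave 0 (without null array 2, where 504 of all probe sets passed and 5 members were at an unadjusted p below 0.05) to 4 (without wild-type array 2). The count of other pathway genes called, 4, became 5 (with Klf5) with a pseudocount of 64, quantile normalization, a common median or robust variances, 10 with array weights, 7 with genes averaged over their tested probe sets (chosen after seeing the data), 2 within each Xist class and 7 with the replicate block, and ranged from 3 to 12 with 1 array left out, the highest again without wild-type array 2. All calls over the array also rose without that array, from 950 to 2172 probe sets, and rose to 1746 with array weights. With the replicate block 690 probe sets passed as higher and 478 as lower. Shares of all probe sets for the fits with the marker covariate and within the Xist classes are given with Fbxw7 above. Same-numbered arrays correlated in their deviations at 0.237, 0.277, -0.030 and -0.081, so the numbers were not taken to pair them. The cause of these shifts was not tested.

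The interaction count was 0 also without the trend. At the brightest probe set, and for the mean of all probe sets, in every alternative run Fbxw7, Maml1, Itch and Spen had log2 fold changes below 0 and Notch2 above 0. Estimates near 0 at the brightest probe set changed sign. Notch1 became -0.025 with the Xist-high term, -0.049 with the marker covariate and -0.078 within Xist-high arrays. Rbpj became -0.0051, -0.024 and -0.0046 in the same order and -0.0055 within Xist-low arrays. Numb became -0.014 with the term, -0.023 with the covariate, -0.043 within Xist-low arrays and -0.019 with a common median, and ranged from -0.039 to 0.032 with 1 array left out. Low signals cannot be told from background here, which limits Maml2, Notch4, Jag1, Klf5 and Cypt3.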
